A study of Homo sapiens with 6 samples.

Results

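The response described here is that of human HEK293 cells to the doxycycline-driven expression of ubAPE1, a fusion of ubiquitin to the repair enzyme APE1. It was taken from 2 of the 6 samples of the study, ubAPE1 with doxycycline (dox+) and ubAPE1 without it (dox-), as the difference of their log2 expression levels for each row of an Affymetrix whole-transcript array. Rows whose mean over the 6 samples was at or above the 25th percentile (5.03 log2) were kept, which left 11619 of 15492 rows, and the median difference was subtracted from every row. The other 4 samples came from the line HEK293/pcDNA-FRT empty vector (vector) and from HEK293/pcDNA-FRT wtAPE1, which carries inducible wild-type APE1, each again without and with doxycycline. HEK293 is an established human embryonic kidney line, and the labels describe its derivatives as tet-on lines. Doxycycline was given at 2 µg per ml for 16 h, and the medium of all samples, untreated ones included, held puromycin at 1 µg per ml. Each genotype was represented by 1 derived line, and whether a line was 1 clone is not given in the sources used here. Each sample is the mean of 3 cultures, averaged by the authors, so that a difference between 2 samples carries no replicate check, no test was made, and the number of arrays limits the precision throughout. In what follows, a row rose or fell if it moved at least 1.5-fold relative to the median row, which is a rule of size only.

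APE1 cuts DNA at abasic sites, which DNA glycosylases leave when they remove a damaged base, and DNA polymerase beta and a ligase then fill and seal the gap in base excision repair. The protein also acts as a redox factor for transcription factors such as AP-1. Ubiquitin is a small protein that is joined to other proteins by a cascade of E1, E2 and E3 enzymes and removed again by deubiquitinating enzymes, and a ubiquitin fused to the end of a protein in the same reading frame stands in for an attached one. The design asks what such a fusion changes beyond doxycycline itself and beyond the unmodified protein.

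The induced gene was measured first. APEX1, which encodes APE1, read 9.82 log2 without and 10.58 with doxycycline in ubAPE1 cells, 9.50 and 10.67 in wtAPE1 cells, and 9.54 and 9.66 in vector cells. The 2 induced samples were thus the highest, and the uninduced ubAPE1 sample came next. APEX1 rose 1.84-fold in ubAPE1 cells, by 0.88 log2. Its response was 1.10 in wtAPE1 cells and 0.17 in vector cells, so that it was 0.69 above the vector response and -0.21 from the wtAPE1 response once each difference was centred on its own median row. Of the 4 ubiquitin genes only UBB was measured, and whether its row also reads the ubiquitin part of the fusion is not known here. UBB read 12.13 and 12.06 in vector cells, 12.17 and 12.05 in wtAPE1 cells and 12.19 and 12.26 in ubAPE1 cells. As deposited, the 2 ubAPE1 samples were the highest by a small margin. The sample medians over kept rows differed by more than this margin (6.56 to 6.81 log2), so that the order depends on the centring. The UBB response was 0.20, short of 1.5-fold. It was 0.12 relative to its block of rows, as described below, and -0.076 relative to rows of like gene length within the block. Its sign thus depends on the centring too.

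The labelled cell type, kidney cells, was set against marker genes. Of 22 epithelial and kidney markers 17 had a row with 1 gene symbol, and 14 passed the row filter. Among them were PAX2 (5.98 to 6.24 log2 over the 6 samples), WT1 and LHX1, which are transcription factors of the developing kidney, and the keratin gene KRT8 (10.22 to 10.54). The tubule markers CDH16, CUBN, SLC12A1, SLC12A3 and UMOD and the epithelial cadherin CDH1 did not pass or were not among the named rows. A row with 1 gene symbol existed for 2 of 5 endothelial markers, and 0 passed. Of 6 blood cell markers 4 had such a row and 2 passed, and of 6 neuronal markers 4 had one and 3 passed. Only 3 of 7 fibroblast and smooth muscle markers had one, and all 3 passed. The blood cell markers that passed were CD68 (6.20 to 6.86 log2) and CD8A (5.47 to 5.82). PTPRC, CD3E and HBB were among those that did not pass or had no such row. The 3 neuronal markers that passed had a mean level of 7.44 log2 in uninduced vector cells and 6.63 in uninduced ubAPE1 cells. The 14 epithelial and kidney markers had lower means, 6.71 and 6.01, so that the levels do not set the kidney markers above the neuronal ones. The derivatives differed in some markers without any drug. EPCAM, an epithelial adhesion protein, read 8.03 and 8.30 in vector cells but 5.30 and 4.91 in ubAPE1 cells, and MAL2, a protein of polarised epithelial transport, read 8.72 and 9.09 in vector cells but 4.03 and 4.06 in ubAPE1 cells. The wtAPE1 line resembled the ubAPE1 line in both, with 5.12 and 4.90 for EPCAM and 4.20 and 4.01 for MAL2. The neuronal marker ENO2 differed in the same way, with 7.63 and 7.67 in vector, 4.96 and 5.27 in wtAPE1, and 5.17 and 4.97 in ubAPE1 cells.

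The rows of the table split into 2 blocks, and the split touches most results below. The rows stand in the order of the array's identifiers, which follow the chromosomes. The split was located in the vector and wtAPE1 responses alone, between rows 3125001 and 3125116 of chromosome 8. The wtAPE1 response alone placed it at row 3124159 and the ubAPE1 response alone at row 3153428. The first block held 4794 kept rows, 41.3% of all, with the genes of chromosomes 1 to 7 and part of 8, and the second held the other 6825. Gene and block disagreed for 27 of 9299 rows with a gene on another chromosome than 8. The median response was 0.067 in the first and -0.045 in the second block in vector cells, -0.047 and 0.040 in wtAPE1 cells, and -0.16 and 0.083 in ubAPE1 cells. Among the 250 kept rows on either side of the split the vector median went from 0.067 to -0.038 and the wtAPE1 median from -0.060 to 0.095, while the ubAPE1 median went from -0.12 to -0.040. The ubAPE1 sample with doxycycline had block medians of 6.53 and 6.61 log2 and the one without 6.83 and 6.69. Responses are therefore also given relative to the median of their own block, and relative to the median of rows of like gene length within the block (20 bins of genomic length in each), with the names block-centred and block-and-length-centred.

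**Figure D1:**
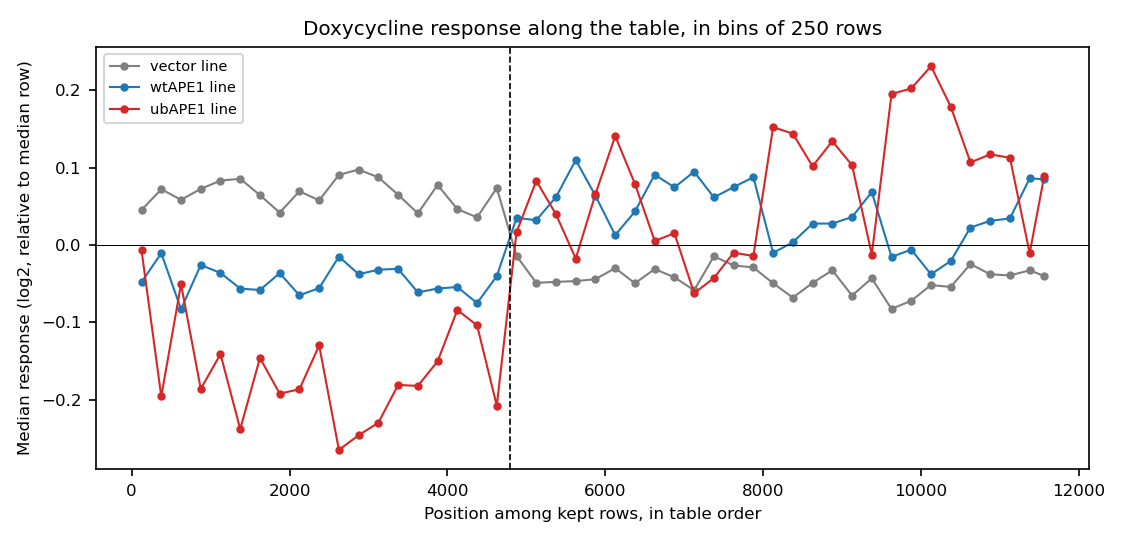
Median doxycycline response (log2, relative to the median row) in successive bins of 250 kept rows in table order, with 1 line for each cell line and a dashed line at the split. The vector bins lie around 0.067 before the split and around -0.045 after it, the wtAPE1 bins step the other way, and the ubAPE1 bins, all below 0 in the first block, lie around 0 and above it in the second.

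Doxycycline was followed by more and larger differences in ubAPE1 cells than in the others. In the ubAPE1 line 141 rows rose (1.21% of kept rows) and 443 fell (3.81%), against 40 rises (0.344%) and 70 falls (0.602%) in vector cells and 59 (0.508%) and 49 (0.422%) in wtAPE1 cells. The robust SD of the response over rows was 0.31 log2 in ubAPE1 cells, 0.17 in vector cells and 0.18 in wtAPE1 cells. The excess of falls over rises lay in the first block, which held 403 of the 443 falls (91.0%) and 46 of the 141 rises (32.6%). In the first block 8.41% of rows fell and 0.96% rose, and in the second 0.586% and 1.39%. Block-centred, 193 rows rose (1.66%) and 187 fell (1.61%), and block-and-length-centred 129 rose (1.34%) and 115 fell (1.19%) of 9647 rows with a length. As deposited, with no row subtracted, 43 rows rose and 996 fell, since the median row itself moved by -0.13. A rule of 2-fold left 4 rises and 14 falls.

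Which of the pair of samples moved was read from their place among all 6, after each sample was centred on its median. Among the 443 rows that fell, ubAPE1 dox+ was the lowest of the 6 samples in 400, ubAPE1 dox- was the highest in 234, both held in 206 and neither in 15. Among the 141 that rose, ubAPE1 dox+ was the highest in 119, ubAPE1 dox- the lowest in 77, both held in 65 and neither in 10. The induced sample thus stood at the edge in most of these rows, and the uninduced one at the opposite edge in about as many as not. These rows were chosen by the difference of the same 2 samples, which by itself draws one or both toward the edges. The shares over all kept rows were not computed. Few of these rows moved as far in another line, though more than the share over all rows. Of the 443 falls, 6 also fell in vector cells (8.57% of its 70 falls) and 6 in wtAPE1 cells (12.2% of its 49). Among the 141 rises, 7 also rose in vector cells (17.5% of its 40) and 3 in wtAPE1 cells (5.08% of its 59). Over all kept rows 3.81% fell and 1.21% rose in ubAPE1 cells, so that each of these shares was the larger. About as many rows moved as far in the opposite direction. Of the 443 falls, 7 rose in vector cells and 6 in wtAPE1 cells, and of the 141 rises 5 fell in vector cells and 2 in wtAPE1 cells. The overlap therefore does not show a shared direction. The median vector response over the 443 falling rows was 0.13, and 106 of them (23.9%) were below 0 in vector cells.

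Among the single-symbol rows with the largest rises were RPL41, KRTAP21-2, NPHS1, LINC00574, KRTAP10-7, ARHGDIA, TOMM7 and SMPDL3B, ahead of APEX1. RPL41, a protein of the large ribosomal subunit, read 5.31 and 5.16 log2 in vector cells, 5.20 and 5.21 in wtAPE1 cells, and 4.25 and 5.37 in ubAPE1 cells. Its response of 1.25 (2.37-fold) therefore goes with a low value in the uninduced ubAPE1 sample, while as deposited the induced one lies beside the other 4. TOMM7, a subunit of the outer membrane import pore of mitochondria, followed the same pattern at 5.42, 5.66, 5.59 and 5.63 in the vector and wtAPE1 samples and 4.90 and 5.67 in the ubAPE1 samples (0.90). Both genes have near-identical copies elsewhere in the genome, and whether the rows tell them apart is not known here. Their uninduced ubAPE1 levels lie below the row filter (5.03 log2), and their other levels not far above it. LINC00574, at 4.70 to 5.49, is close to the filter too. Weak rows such as these could not be told from unexpressed genes. ARHGDIA, a cytosolic regulator of small GTPases, read 7.21, 7.27, 7.49 and 7.48 in the vector and wtAPE1 samples, and 7.16 and 7.93 in the ubAPE1 samples. Here the induced sample was the highest of the 6 and the uninduced one the lowest, with a response of 0.90.

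Some of the largest rises were shared with another line. NPHS1, which encodes nephrin of the podocyte slit diaphragm, read 5.20 and 5.50 in vector cells, 4.75 and 5.74 in wtAPE1 cells and 4.99 and 5.84 in ubAPE1 cells, with responses of 0.35, 0.92 and 0.98. KRTAP21-2, a keratin-associated protein gene, responded by 0.93 in vector cells and by 1.04 in ubAPE1 cells, against 0.060 in wtAPE1 cells. Further genes among the 20 largest rises were PLA2G2F (0.88), a secreted phospholipase, HPD (0.85), an enzyme of tyrosine breakdown, ATP6V0A2 (0.82), a subunit of the vacuolar proton pump, IGFALS (0.79), a carrier of insulin-like growth factors in serum, LYRM2 (0.78), and CHCHD10 (0.76), a protein of the mitochondrial intermembrane space. CHCHD10 read 8.50, 8.28, 8.37 and 8.02 in the vector and wtAPE1 samples and 7.86 and 8.49 in the ubAPE1 samples. Its uninduced ubAPE1 value was the lowest of the 6. After each sample was centred on its median, the induced ubAPE1 value was also the highest. TOM1L2 rose by 0.78 in the row named here but stood at -0.063 in its other row. Of the 112 single-symbol rows that rose, 8 belong to long noncoding RNAs, LINC00574 (0.92) among them, against 0 of the 370 that fell and 80 of the 9653 kept.

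All of the 20 largest falls among single-symbol rows were in the first block. RWDD4 read 6.56 and 7.04 in vector cells, 6.65 and 6.47 in wtAPE1 cells and 6.87 and 5.36 in ubAPE1 cells, a fall of 2.62-fold (-1.39). EIF4E, which binds the cap of messenger RNAs to start translation, read 7.23 and 7.08, 6.96 and 6.24, and 7.23 and 5.88 in the same order. The induced ubAPE1 sample was the lowest for both, and the induced wtAPE1 sample came next for EIF4E, with responses of -0.80 in wtAPE1 cells and -1.23 in ubAPE1 cells. SDHC, a membrane anchor of respiratory complex II, read 7.37 and 7.27, 6.16 and 6.76, and 7.16 and 5.95. The induced ubAPE1 sample was again the lowest, though the uninduced wtAPE1 sample lay close to it. SEPTIN7, the subunit on which septin filaments depend, fell by 1.06 on the log2 scale in ubAPE1 cells and by 0.59 in vector cells. UBXN2A, a cofactor of the ubiquitin-dependent unfoldase p97, read 7.05 and 7.11, 6.41 and 6.52, and 7.34 and 6.20, a fall by 1.01. Further falls were LSM5 (-0.96), a ring subunit that binds U6 RNA, SASS6 (-0.94), the cartwheel protein of new centrioles, LRIF1 (-1.04), a chromatin protein that binds HP1, BCAP29 (-0.99), a protein of the endoplasmic reticulum membrane, and TPMT (-1.01), the thiopurine methyltransferase. TPMT read 5.58 and 4.44 in ubAPE1 cells but also 4.53 and 4.49 in wtAPE1 cells, so that the induced ubAPE1 value is one that the wtAPE1 line held without induction.

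Several of these genes have a further row that moved less. LYRM7, an assembly factor of respiratory complex III, fell by 1.34 in the row named here and by 0.60 in the other. VANGL1, a planar cell polarity protein, fell by 1.16 in one row and stood at -0.033 in the other, and TOR1AIP2, an activator of torsin in the endoplasmic reticulum, stood at -1.05 and -0.33. In the second block, where 40 rows fell, the largest block-centred falls included DYNLL1 (-0.90), the light chain shared by dynein and other complexes, RBMS2 (-0.85), TRPM7 (-0.81), an ion channel with a kinase domain, RPS27L (-0.81), and FANCB (-0.79). The FANCB levels lie around the row filter. DYNLL1 read 9.42 and 9.06, 9.69 and 9.30, and 9.74 and 8.80, and its response was -0.31 in vector, -0.46 in wtAPE1 and -0.81 in ubAPE1 cells, below 0 in all 3 lines.

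**Figure D2:**
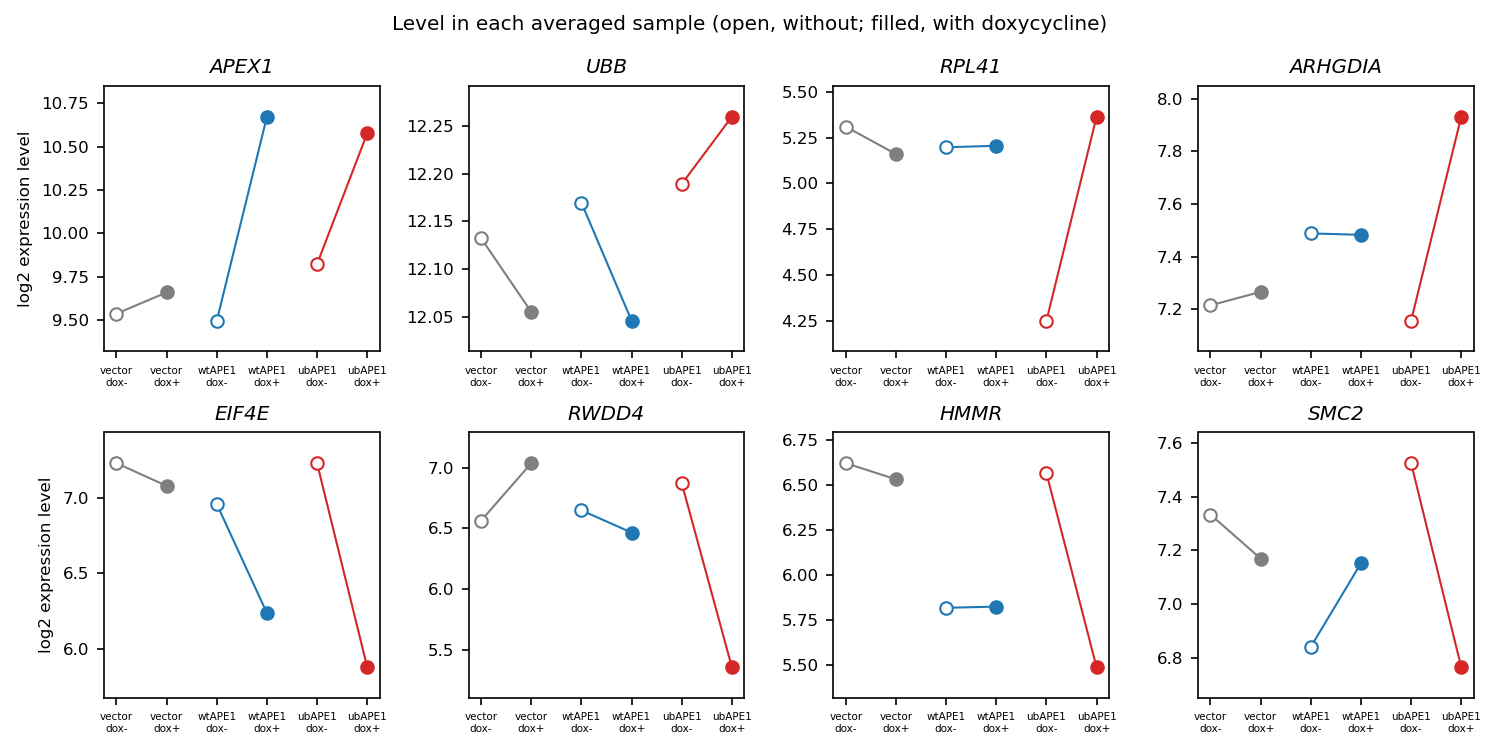
Level (log2) of 8 genes in each averaged sample, with open points without and filled points with doxycycline, joined within the vector, wtAPE1 and ubAPE1 lines. APEX1 rises in both APE1 lines, RPL41 differs from the other samples at its uninduced ubAPE1 point, and for EIF4E, RWDD4, HMMR and SMC2 the induced ubAPE1 point is the lowest of the 6.

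Genes of mitosis had responses mostly below the median row in ubAPE1 cells, and the uninduced wtAPE1 sample was nearly as low as the induced ubAPE1 sample. Of the 40 genes of a list for kinetochore, spindle and cytokinesis 32 were measured, and 11 of these fell, 0 rose and 30 were below the median row, against 3.81% falling and 50% below among all kept rows. Their median response was -0.46 in ubAPE1 cells, -0.11 in vector cells and 0.16 in wtAPE1 cells. Their mean level without and with doxycycline was 7.31 and 7.15 in vector, 6.76 and 6.97 in wtAPE1, and 7.27 and 6.69 log2 in ubAPE1 cells. Block-centred, the ubAPE1 median was -0.40 with 8 falls, and block-and-length-centred it was -0.33 with 4 falls and all 32 below 0, where 49.8% of all rows are below 0. The 16 members in the first block had a block-centred median of -0.43 and the 16 in the second of -0.37. In a list of 24 mitotic kinases and regulators, of which 23 were measured, the median was -0.18 and 3 fell.

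By role, the outer kinetochore complex that grips microtubules was represented by SPC25 (-0.98), NDC80 (-0.52), NUF2 (-0.52) and SPC24 (0.027), and the inner centromere network by CENPK (-0.91), CENPI (-0.47) and CENPU (-0.41). SPC25 read 6.79 and 6.69 log2 in vector cells, 6.50 and 6.35 in wtAPE1 cells and 7.16 and 6.05 in ubAPE1 cells. CENPK read 7.11 and 6.95, 6.72 and 6.62, and 7.28 and 6.24. For both, the 2 ubAPE1 samples were the highest and the lowest of the 6. Among spindle proteins, HMMR (-0.95), which binds microtubules at the poles, read 6.62 and 6.53, 5.82 and 5.82, and 6.56 and 5.49, and ASPM (-0.65), another pole protein, and the kinesins KIF14 (-0.71), KIF15 (-0.69) and KIF20B (-0.60) also fell. Cytokinesis was represented by ECT2 (-0.86), an exchange factor at the midzone, ANLN (-0.59), which scaffolds the contractile ring, PRC1 (-0.15), which bundles midzone microtubules, and CEP55 (-0.014), which recruits the abscission machinery. SMC2, a core ATPase of condensin, read 7.33 and 7.17, 6.84 and 7.15, and 7.52 and 6.77, a fall by 0.63 with the induced ubAPE1 sample the lowest. Its vector and wtAPE1 responses were -0.12 and 0.24.

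Among kinases and regulators, TTK (-0.84), the kinase that starts the spindle checkpoint, PLK4 (-0.62), which starts centriole duplication, and ANAPC10 (-0.65), a subunit of the anaphase-promoting ubiquitin ligase, fell. The cyclins CCNB1 (-0.22) and CCNA2 (-0.24) and the kinase CDK1 (-0.36) were below the median row without reaching 1.5-fold, while PLK1 (0.17) and AURKB (0.31) were above it. Relative to the median row the response was therefore uneven, with a median of -0.46 in the structural list and -0.18 among the kinases and regulators. Block-and-length-centred the medians were nearer to each other, at -0.33 and -0.21. The structural genes are the longer ones, with a median of 44.3 kb against 17.4 kb. Over both lists, 14 of 55 genes fell and the median was -0.33, or -0.27 with 47 genes below 0 when block-and-length-centred.

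**Figure D3:**
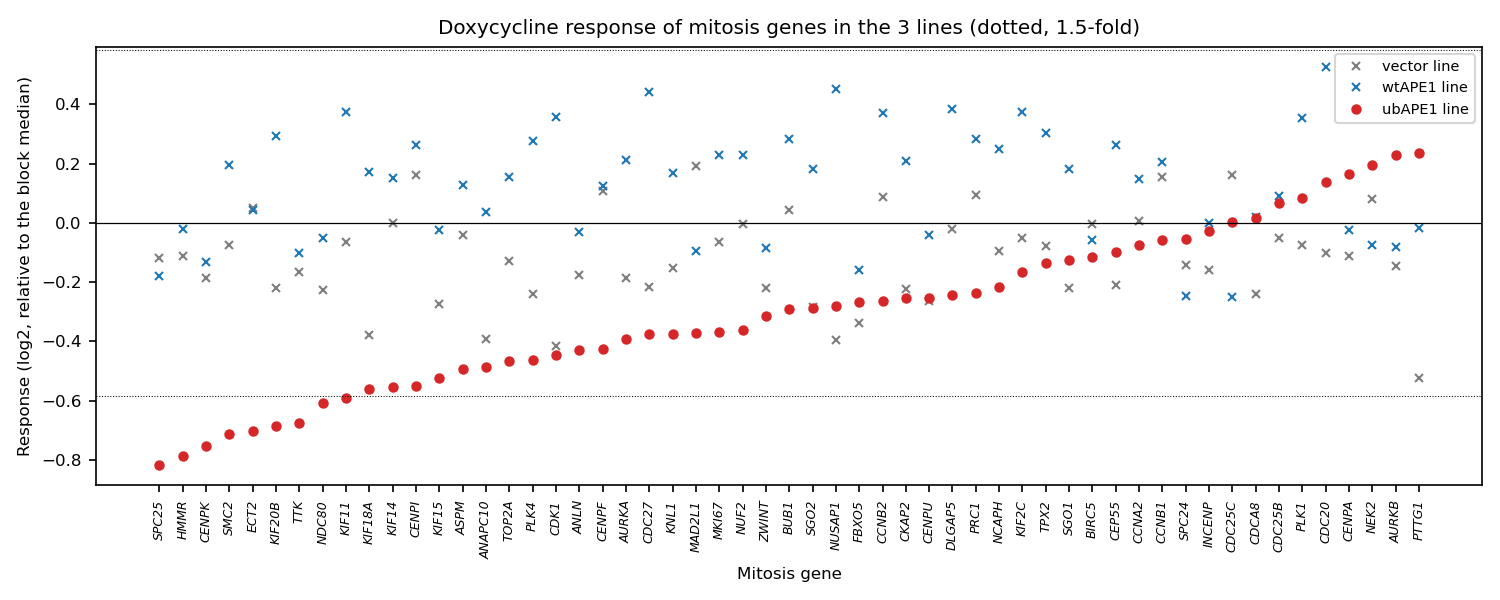
Block-centred response (log2) of the measured mitosis genes in order of their ubAPE1 value, with filled points for the ubAPE1 line and crosses for the vector and wtAPE1 lines. The ubAPE1 points run from about -0.82 for SPC25 to 0.24 for PTTG1 and lie below 0 for 46 of 55 genes, and most wtAPE1 crosses lie above 0.

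Many promoters of mitosis genes carry a cell cycle element called CHR, often with a CCAAT box upstream of it, and these were looked for in the RefSeq promoters of assembly GRCh38.p14. The window ran from 250 bases before the gene's start to 30 after it, the CHR was searched as TTTGAA or TTCGAA, the CCAAT box as CCAAT, and both on either strand. Genes of the group with large falls are shown, 3 from the first block and SMC2 from the second. They lie at chr2:168890401-168890680 (minus strand), chr5:163460382-163460661 (plus strand), chr5:65563139-65563418 (minus strand) and chr9:104094059-104094338 (plus strand). Each is printed from 5′ to 3′ along its gene, with matches to either motif on either strand in capitals.
SPC25: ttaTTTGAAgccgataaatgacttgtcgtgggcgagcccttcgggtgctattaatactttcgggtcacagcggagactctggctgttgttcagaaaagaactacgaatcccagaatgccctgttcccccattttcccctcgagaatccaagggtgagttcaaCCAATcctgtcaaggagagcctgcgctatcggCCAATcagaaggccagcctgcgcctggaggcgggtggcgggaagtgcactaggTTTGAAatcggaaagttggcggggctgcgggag
HMMR: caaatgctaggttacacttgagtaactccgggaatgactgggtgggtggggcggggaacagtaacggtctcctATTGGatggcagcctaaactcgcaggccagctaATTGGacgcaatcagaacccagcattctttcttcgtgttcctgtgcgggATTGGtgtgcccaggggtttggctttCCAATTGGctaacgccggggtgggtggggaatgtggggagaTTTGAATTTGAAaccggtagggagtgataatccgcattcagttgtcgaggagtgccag
CENPK: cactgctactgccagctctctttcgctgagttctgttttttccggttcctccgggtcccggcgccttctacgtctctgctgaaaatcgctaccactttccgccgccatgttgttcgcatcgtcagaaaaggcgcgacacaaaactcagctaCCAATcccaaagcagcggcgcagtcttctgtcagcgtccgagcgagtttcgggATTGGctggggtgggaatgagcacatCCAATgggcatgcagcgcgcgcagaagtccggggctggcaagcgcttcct
SMC2: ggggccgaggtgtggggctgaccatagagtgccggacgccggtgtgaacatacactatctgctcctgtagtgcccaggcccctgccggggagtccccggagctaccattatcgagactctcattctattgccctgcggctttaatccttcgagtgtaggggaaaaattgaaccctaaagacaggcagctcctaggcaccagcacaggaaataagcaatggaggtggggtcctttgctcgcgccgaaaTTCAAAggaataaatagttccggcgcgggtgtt
SPC25 held 2 CHR and 2 CCAAT matches, HMMR 2 and 5, CENPK 0 and 3, and SMC2 1 and 0, so that the group shares no single arrangement. The CHR match of SPC25 nearest its start begins 3 bases before it, as does that of SMC2.

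Over the group, a CHR match stood in 30 of 50 measured mitosis genes with a promoter in the table (60%), against 762 of 7860 measured genes (9.69%) and 15.8% of all 27305 promoters. The CCAAT box stood in 37 of the 50 (74%), against 35.8% of measured genes and 34.7% of all promoters. Within the group the match did not follow the response closely, since 9 of the 13 genes that fell held a CHR match (69.2%) and so did 21 of the 37 that did not reach 1.5-fold (56.8%). An E2F-type site, searched as TTTGGCGC or TTTCCCGC on either strand, stood in 3 of the 50, against 3.47% of measured genes. Among all 308 genes that fell and have a promoter in the table, 41 held a CHR match (13.3%), and among 89 that rose 7 did (7.87%). A match describes the letters of the window and shows no bound factor.

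Genes that repair DNA by homologous recombination, together with the Fanconi genes that unhook crosslinks, were lower as well. Of 28 listed genes 20 were measured, 2 fell, 0 rose, 16 were below the median row and the median was -0.34, against -0.053 in vector cells and 0.070 in wtAPE1 cells. All 20 were below 0 both block-centred (median -0.28) and block-and-length-centred (-0.22). FANCB, of the Fanconi core complex, read 5.32 and 5.04, 4.86 and 5.28, and 5.52 and 4.68 in vector, wtAPE1 and ubAPE1 cells, and fell by 0.71. XRCC2 read 6.68 and 6.74, 6.68 and 6.38, and 6.87 and 6.12, and fell by 0.61. FANCI (-0.51), which is monoubiquitinated in crosslink repair, BARD1 (-0.49), a ubiquitin ligase subunit, and the helicase BLM (-0.47) did not reach 1.5-fold.

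Base excision repair, the pathway of APE1 itself, moved little apart from APEX1. Of 30 listed genes 21 were measured, 1 rose, 0 fell, 11 were below the median row and their median was -0.020. Among the glycosylases, which remove the damaged base, SMUG1 (0.42) and MPG (0.29) stood highest and NEIL3 (-0.56) and MBD4 (-0.29) lowest, with TDG (0.054), UNG (0.017), OGG1 (0.093) and MUTYH (0.15) between them. NEIL3 read 7.06 and 7.06, 6.62 and 6.74, and 7.11 and 6.42, so that the induced ubAPE1 sample was the lowest. Downstream of APE1, the gap-filling polymerase POLB stood at -0.33, the ligases LIG3 and LIG1 at -0.22 and 0.10, the strand break sensors PARP1 and PARP2 at -0.28 and -0.12, and the second abasic endonuclease APEX2 at 0.032. Block-centred, APEX1 stood at 0.80, the other 12 measured genes downstream lay between -0.30 and 0.020, and the median of the 21 was -0.10.

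DNA replication genes had a median of -0.18, with PRIM2 (-0.76), the large primase subunit, as the only fall among 36. Block-and-length-centred their median was -0.11. The replication-dependent histone genes, which are very short and all lie in the first block, depended on the centring. The median of their 31 measured members was 0.16 block-centred, with 8 below 0, and -0.17 block-and-length-centred, with 27 below 0. H2BC17 rose (0.73) and H2BC4 fell (-0.84), and H2BC4 stood at -1.05 in vector cells too. Histone genes are close copies of each other, and how far their rows tell them apart is not known here.

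The ubiquitin system was described by step. Of 20 measured E1 and E2 enzymes, which activate and carry ubiquitin, 0 rose or fell, and the median was -0.15, or -0.010 block-and-length-centred. UBA6 (-0.44), the second E1, and UBE2J1 (-0.43), an E2 of the endoplasmic reticulum, stood lowest. A second row for the E2 gene UBE2K was 0.67, while the row chosen for the gene was -0.33. Among 34 measured E3 ligases and cullin components TRIP12 (-0.63) and FBXO11 (-0.60) fell and the median was -0.24, against 0.058 in vector and 0.13 in wtAPE1 cells. Block-and-length-centred this median was -0.10 and 0 members fell.

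Of 38 measured deubiquitinating enzymes 3 fell, USP1 (-0.79), USP34 (-0.76) and USP46 (-0.60), 0 rose, and the median was -0.24, or -0.091 block-and-length-centred. USP1, which removes ubiquitin from FANCD2 and PCNA, read 8.23 and 8.49, 7.85 and 7.93, and 8.54 and 7.63. It was the lowest in the induced ubAPE1 sample and the highest in the uninduced one, and it still fell when block-and-length-centred (-0.72). Of 24 measured proteasome subunits PSMB6 rose (0.62), a catalytic core subunit with responses of -0.55 in vector and 0.50 in wtAPE1 cells, 0 fell, and the median was -0.086. Among 20 measured genes of MDM2 and its partner p53 or its targets, MDM4 (-0.77), which restrains p53, fell and the median was -0.024.

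Of 33 measured enzymes of matrix metabolism 5 fell, HIBCH (-0.90) of valine breakdown, MMUT (-0.75), the mutase that needs vitamin B12, ACADM (-0.67) of fatty acid oxidation, and DLD (-0.63) and DBT (-0.60), subunits of the 2-oxoacid dehydrogenases. HIBCH read 6.06 and 6.58, 5.83 and 5.63, and 6.46 and 5.43, with a vector response of 0.57, just short of 1.5-fold. The median of the group was -0.18 in ubAPE1 cells, 0.11 in vector and 0.092 in wtAPE1 cells. All 5 were in the first block, and block-centred 2 fell and the median was -0.16, while block-and-length-centred 0 fell and it was -0.15. Of 63 measured mitochondrial ribosomal proteins MRPL49 (0.66) and MRPL52 (0.59) rose and MRPS33 (-0.79), MRPS17 (-0.68) and MRPS14 (-0.62) fell, with a median of 0.026. Respiratory complexes II to V had a median of 0.093 with SDHC as the only fall among 26, and complex I a median of -0.029 with NDUFA5 (-0.78) as the only fall among 27. In the import machinery TOMM7 rose and TIMM17A (-0.60), of the inner membrane translocase, fell. The median of these 16 measured genes was 0.12 relative to the median row and -0.12 block-and-length-centred, so that its direction depends on the centring.

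In gene expression itself, EIF4E and EIF5B (-0.63), which joins the ribosomal subunits, were the falls among 28 measured translation factors, whose median was -0.019. RPL41 was the only rise among 25 measured cytosolic ribosomal proteins, with 0 falls. Of 36 measured splicing factors LSM5 (-0.96), LSM2 (-0.74) and SRSF3 (-0.62) fell and SRSF10 (0.74) rose. The SRSF10 row stands in the second block although the gene lies on chromosome 1, so what it measures is uncertain. POLR2B (-0.61), the second subunit of RNA polymerase II, was the only fall among 34 genes of the polymerase and Mediator. Among kinases of growth signalling ROCK2 (-0.86), which drives actomyosin contraction, PIK3CB (-0.62) and RICTOR (-0.59), a subunit of mTORC2, fell, and all 3 are long genes of the first block. Block-and-length-centred they stood at -0.54, -0.35 and -0.26, short of the rule.

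Stress programmes held few genes past 1.5-fold. Of 29 measured AP-1 and immediate early genes MYCN rose (0.66), 23 were above the median row and the median was 0.14, but block-and-length-centred it was 0.010 with 14 below 0. WFS1 (0.68), a membrane protein of the endoplasmic reticulum, was the only rise among 23 chaperones and stress genes of that compartment, and its vector response was -0.72. SEPTIN7 was the only fall among 30 septin and actin cytoskeleton genes, with 0 rises. BNIP3 (-0.65), a mitophagy receptor, was the only fall among 19 HIF targets, with 7.06 and 6.83, 7.05 and 7.10, and 7.66 and 6.88 in the 3 lines, so that its response goes with a high uninduced ubAPE1 value. ELOVL6 (-0.91), a fatty acid elongase, was the only fall among 25 genes of sterol and fatty acid synthesis. Among the measured ATF4 targets (30), glycolysis genes (15), cytosolic chaperones (22), NRF2 and redox genes (24), NF-kB and interferon genes (13) and matrix and integrin genes (27), 0 rose or fell.

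Of the 14 measured epithelial and kidney markers NPHS1 (0.98) and CLDN3 (0.69), a tight junction claudin, rose, 0 fell, 12 were above the median row and the median was 0.23, or 0.27 block-and-length-centred. CLDN3 read 5.76 and 6.03, 5.96 and 6.05, and 5.67 and 6.24, so that the ubAPE1 samples held both the lowest and the highest value. KRT8 (0.42), PAX2 (0.35) and KRT19 (0.35) did not reach 1.5-fold, and EPCAM stood at -0.26. The 5 measured blood cell and fibroblast markers lay between 0.13 and 0.38, and several of these marker rows are close to the row filter. Rows of low level responded upward in general, with a median of 0.12 in the 2905 lowest, and the part of this in the marker values was not tested.

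**Figure D4:**
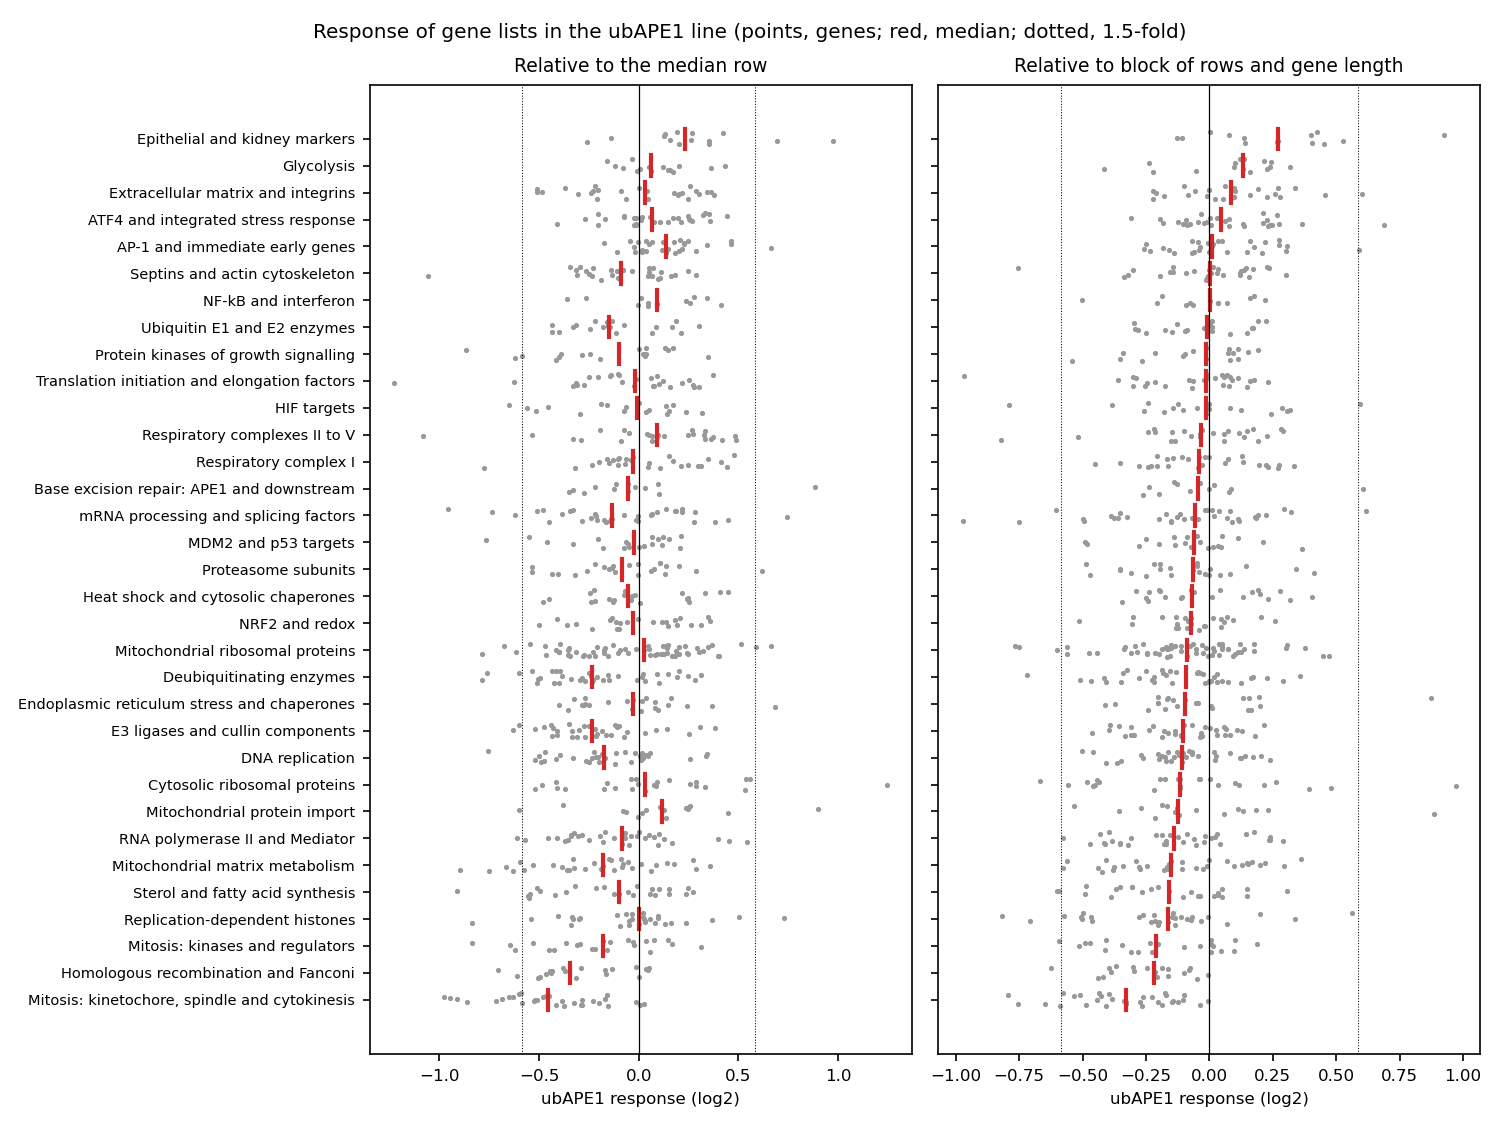
Responses (log2) of the measured genes of each list with at least 10 of them in ubAPE1 cells, relative to the median row on the left and to rows of the same block and gene length on the right, with red bars at list medians and dotted lines at 1.5-fold. The kinetochore and spindle list lies lowest in both panels (-0.46 and -0.33), and the epithelial and kidney markers highest (0.23 and 0.27).

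The ubAPE1 response also fell with gene length, and the classes used here were under 5, 5 to 20, 20 to 60 and over 60 kb of genomic length. Their median responses in ubAPE1 cells were 0.22 (1029 rows), 0.11 (2808), -0.050 (3017) and -0.15 (2793). Of the shortest class 4.37% of rows rose and 0.29% fell, and of the longest 0.36% rose and 6.27% fell. The longest minus the shortest class was -0.38 in ubAPE1 cells, with -0.43 in the first and -0.33 in the second block, against 0.071 in vector and 0.12 in wtAPE1 cells. Set against the mean of the 4 samples of the other lines, the induced ubAPE1 sample gave -0.23 for this difference and the uninduced one 0.15, so that both of the pair contribute. Genes that rose had a median length of 6.26 kb and genes that fell 58.1 kb, against 28.8 kb for all kept rows. Over 9647 rows the rank correlation of length and response was -0.41 in ubAPE1 cells, 0.15 in vector and 0.22 in wtAPE1 cells, as a description across genes that share samples. The response went with level too, at 0.12 in the 2905 rows with the lowest means and -0.042 in the 2905 with the highest.

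**Figure D5:**
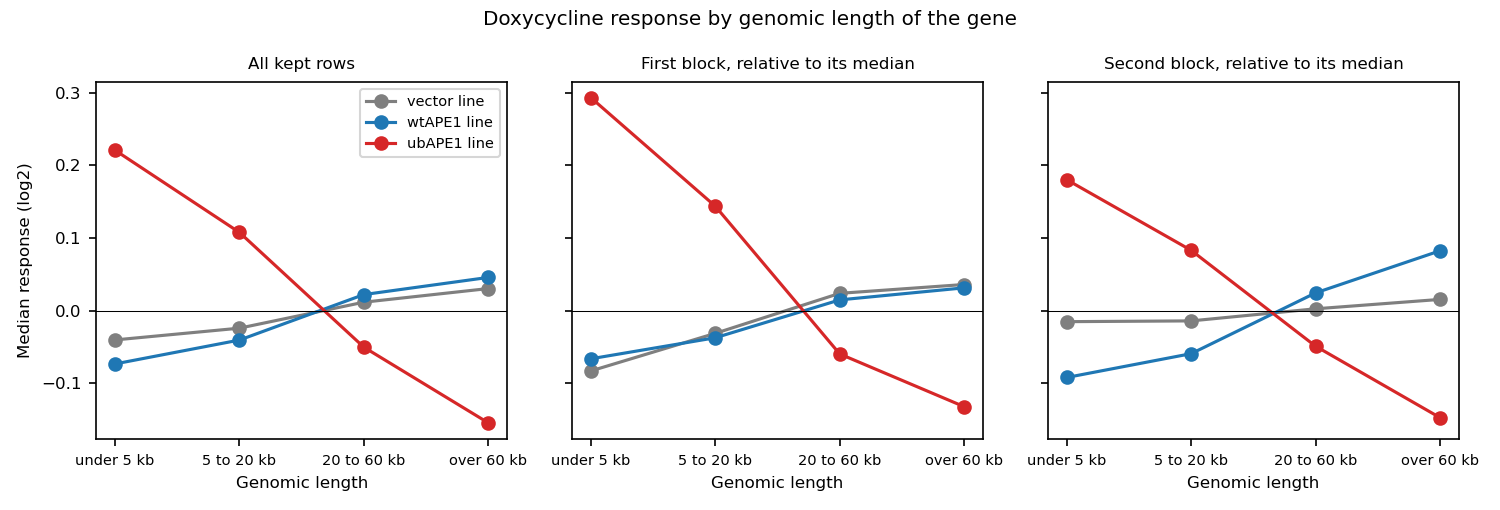
Median doxycycline response (log2) in 4 classes of genomic length, for all kept rows and for each block relative to its own median, with 1 line for each cell line. In every panel the ubAPE1 medians go down with length, from 0.22 to -0.15 over all rows, and those of the other lines go up slightly.

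The ubAPE1 response was then set against the response of each other line, gene by gene. Against the vector line, 406 rows responded at least 1.5-fold higher (3.49%) and 1132 lower (9.74%), and block-centred 531 (4.57%) and 541 (4.66%). Among the largest negative differences were RWDD4 (-1.93), HIBCH (-1.49), ATP6V1C1 (-1.27), a subunit of the vacuolar proton pump, and PPIA (-1.24), the cyclophilin A gene, each of which stood above the median row in vector cells (0.52, 0.57, 0.60 and 0.38) and fell in ubAPE1 cells (-1.39, -0.90, -0.64 and -0.84). Among the largest positive ones were WFS1 (1.38), RPL41 (1.33), TRAPPC5 (1.29), a tether subunit of vesicle transport, MYCN (1.22) and PSMB6 (1.15). The vector line carried much of this, with responses of -0.72 for WFS1, -0.67 for TRAPPC5, -0.58 for MYCN and -0.55 for PSMB6, and only -0.10 for RPL41.

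Against the wtAPE1 line, 532 rows responded at least 1.5-fold higher (4.58%) and 890 lower (7.66%), and block-centred 577 (4.97%) and 822 (7.07%). SDHC (-1.60), LRIF1 (-1.59), RBMS2 (-1.29), PLRG1 (-1.27), a spliceosome component, and SPCS3 (-1.25), a signal peptidase subunit, were among the lowest. Their wtAPE1 responses were 0.53, 0.57, 0.53, 0.85 and 0.59. Uninduced wtAPE1 cells were low for all 5, at 6.16, 5.43, 5.81, 7.96 and 7.55 log2, the lowest sample for PLRG1 and SPCS3 and the second lowest for the other genes. CHRM4 (1.90), a muscarinic receptor, TNFRSF13C (1.40), the receptor of the B-cell factor BAFF, HPD (1.32) and H4C1 (1.27) were among the highest. H4C1 stood at 0.024 in ubAPE1 cells and -1.23 in wtAPE1 cells, and CHRM4 at 0.68 and -1.20, so that the wtAPE1 line carried most of both differences. The CHRM4 levels, 4.49 to 5.84 log2 over the 6 samples, lie around the row filter. The kinetochore and spindle genes had opposite medians in these lines, -0.46 and 0.16, and neither difference has a replicate check.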

How the data were processed

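The labels describe 6 samples of HEK293 derivatives on Affymetrix whole-transcript arrays, each a mean of 3 cultures averaged by the authors. The deposited table holds a log2 level for each array row and sample. That it is log2 follows from the range of the values, while normalization, background correction and probe summarisation are steps not given in the sources used here. Genome build hg 18 is named per the submitters' processing notes. Gene names came from the platform's annotation, through which 12616 rows had 1 symbol, 2031 several and 845 none. Gene types, chromosomes, genomic lengths and promoters came from RefSeq tables of GRCh38.p14, which is another build, so no array coordinate was set against them.

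Rows with a mean at or above the 25th percentile (5.03 log2) were kept: 11619 rows, 9653 with 1 symbol, for 9569 genes. The rows just inside the filter were C1QA (mean 5.026, response 0.12) and NPFF (5.028, 0.37), and those just outside ZNF597 (5.025, -0.0083) and CPXM1 (5.025, 0.41). A response is the difference of 2 columns minus its median over kept rows, described by size with a rule of 1.5-fold and without a test. The block split was found as the point that best divides the vector minus wtAPE1 response, so without the ubAPE1 columns. The members and the 39 gene lists were chosen with earlier results of these data known. For a gene with several kept rows (84 genes) lists use the row with the highest mean. Named are APEX1 and UBB, the 20 largest rises and falls, the 10 largest differences from each other line in each direction, and list members past 1.5-fold (at most 8) or else the 2 largest, and all base excision repair genes; other genes were named after their values were seen. Computations used Python 3.11.15 with pandas 2.3.3 and numpy 2.4.6, and figures matplotlib 3.10.9. The block split, the centring and quantile normalization were tried on simulated data, in which the set changes were larger than 1.5-fold. The gene lists, sample positions, differences between lines and motif search were not tried in this way. The results were recomputed with all rows, with only those above the 50th percentile, and with quantile normalization, values under the 10th percentile raised to it, removal of a trend over 20 length bins, 1 row per gene, a 2-fold rule, and no centring. Centring within the 2 blocks, alone or with length bins, was chosen after seeing the data.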

Additional observations from a re-analysis of the deposited data

Results flagged for a closer look

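In 4 results the ubAPE1 line moved one way and both other lines, or the vector line, the other way; these differences were not tested. The response of genes over 60 kb minus that of genes under 5 kb was -0.3753 in ubAPE1 cells, 0.0707 in vector cells and 0.1191 in wtAPE1 cells. The median of the first minus the second block of rows was -0.2432 in ubAPE1 cells, 0.1125 in vector cells and -0.0873 in wtAPE1 cells. The median of mitochondrial matrix metabolism genes was -0.1795 in ubAPE1 cells, 0.1072 in vector cells and 0.0915 in wtAPE1 cells. That of E3 ligases and cullin components was -0.2351, 0.0579 and 0.1288 in the same order, and these genes are long (median 102.6 kb).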

How the results depend on the processing

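A reversal was looked for only in the APEX1 response and the length difference, and neither was reversed under the alternatives run. Counts and list medians could not be called reversed by this rule. Some list medians did change sign, such as that of mitochondrial protein import (0.1164 to -0.1236 with blocks and length bins). Quantile normalization, raised low values and 1 row per gene moved none of the results. List medians moved by more than the robust SD of the vector response (0.17) with length bins for histones (-0.2390) and mitochondrial protein import (-0.0708), and for the latter with blocks and length bins (-0.1236), of 36 lists. Counts that moved by over 1.5 times are given next, and which genes they hold was not compared. Without a row filter 233 rows rose and 722 fell, 1497 responded lower than in the wtAPE1 line, and among the falls dox+ was lowest in 605 and dox- highest in 379, among the rises dox+ highest in 182 and dox- lowest in 128. At the 50th percentile these were 84, 219, 451, 201, 127, 73 and 41. With length bins they were 86, 229, 468, 192, 120, 66 and 45, the differences from the vector line were 245 higher and 688 lower, and APEX1 responded by 0.6406. At 2-fold, 4 rose and 14 fell, 32 and 124 differed from the vector line, and 36 and 46 from the wtAPE1 line. As deposited, 43 rose and 996 fell, and 105 and 2360 differed from the wtAPE1 line. Within blocks 187 fell, 541 responded lower than in the vector line, and dox+ was lowest in 157 falls and dox- highest in 112. With blocks and length bins these were 115, 299, 84 and 67, 431 responded lower than in the wtAPE1 line, and APEX1 responded by 0.6074. The length difference has no value with length removed. No paired analysis was possible because each group has 1 column and no replicate numbers, which also leaves no replicate to leave out. A pseudocount was not needed for log2 values. Signal over background is not in the values, so weak rows could not be told from unexpressed genes.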

Other observations

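Large gene families were counted after seeing the data. Among all kept rows 3.81% fell and 1.21% rose, and 49.8% of those with a length were below 0 block-and-length-centred. Of 208 measured ZNF zinc finger genes, most of them transcription factors, 8 fell and 1 rose in ubAPE1 cells, and the block-and-length-centred median was -0.13 with 142 below 0. Of 185 solute carriers 11 fell and 1 rose, with a median of 0.031 on the same scale and 80 below 0. The 118 TMEM genes had 6 falls and 0 rises with 59 below 0, and the 47 RAB GTPases of vesicle traffic 1 fall with 27 below 0. Of 26 kinesins 4 fell, with a median of -0.036 and 14 below 0. Over 80 kept rows of long noncoding RNAs the median response was 0.25.

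By chromosome, the block-centred ubAPE1 median was 0.14 for 711 rows of chromosome 19, -0.19 for 166 rows of chromosome 13 and -0.16 for 131 rows of chromosome 18. It was -0.12 for 336 rows of chromosome 4 and also for the 153 second-block rows of chromosome 8. The vector medians were -0.025, -0.0061, 0.0097, 0.034 and 0.024 in the same order. Gene length was not taken out of these medians.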
